A study of Rattus norvegicus with 12 samples.

Results

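Mitochondrial carriers of the Slc25 family were examined in cardiomyocytes exposed to the plasticizer DEHP. The members were all probe sets that the platform annotation ties to exactly 1 gene symbol beginning with Slc25a, leaving out Slc25a20, the carnitine-acylcarnitine carrier. This gave 41 probe sets of 36 genes, out of 27342 probe sets on the array, and no member was removed by a filter on low values. A further 12 family genes on a hand-written roster, among them the aspartate/glutamate carriers Slc25a12 and Slc25a13, had no probe set under this rule and were not analysed here.

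The DEHP group held 6 arrays from monolayers given 50 µg/mL DEHP, di(2-ethylhexyl) phthalate, in 0.1% DMSO for 3 days. The control group held 6 arrays from monolayers given 0.1% DMSO alone for the same 3 days. All cells came from hearts of 2-day-old Sprague-Dawley pups of 1 litter, were plated on coverslips and were grown for 3 days before treatment. The deposited values divide every array's signal by the median of that probe set over the 12 arrays, so a log2 ratio compares arrays and says nothing of how abundant a transcript is.

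The Slc25 family comprises small proteins, most of them in the inner mitochondrial membrane, that exchange metabolites between matrix and cytosol. They move ADP and ATP, phosphate, the acids of the tricarboxylic acid cycle, amino acids, coenzymes, iron and glutathione. In heart muscle, which depends on oxidative ATP supply, the ADP/ATP carrier and the phosphate carrier are among the most abundant mitochondrial proteins. Other members link fuel choice to the cytosol, as when citrate leaves mitochondria for lipid synthesis.

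The largest rises under DEHP were in the glutamate carrier gene Slc25a22 (1.77-fold), the uncoupling protein-like Slc25a30 (1.67-fold), the unassigned Slc25a34 (1.58-fold) and the coenzyme A carrier gene Slc25a42 (1.42-fold), with 1 of 2 probe sets of Slc25a23 at 1.44-fold. The genes that fell in at least 1 probe set were the ATP-Mg/phosphate carriers Slc25a25 and Slc25a24, the S-adenosylmethionine carrier Slc25a26 and the citrate carrier Slc25a1. A probe set passed when limma's adjusted p, over all 27342 probe sets, was under 0.05. Of the 41 member probe sets, 11 rose, 5 fell and 25 did not pass. The 16 that passed are 39.0% of the members, and 18.3% of all probe sets on the array passed. For rises the shares were 26.8% of members and 10.5% of all probe sets, and for falls 12.2% and 7.82%. These sets are unlike, since every member carries 1 gene symbol and only 15097 of the 27342 probe sets do. With the fit limited to those 15097, 3922 passed, 2310 of them higher, and 17 members passed, 12 of them higher. The same limit holds wherever a share over all probe sets is set beside members or listed genes. Counted once per gene by its lowest-numbered probe set, 10 genes rose, 3 fell and 23 did not pass. When any probe set counts, 4 genes fell, Slc25a1 being the one added. The median log2 fold, DEHP over control, was 0.10 over the members and −0.02 over all probe sets. The 6 DEHP values lay wholly apart from the 6 control values in 9 member probe sets (22.0%), and in 12.2% of all probe sets. Tested against a minimum fold of 1.2, Slc25a22, Slc25a25 and Slc25a30 still passed, 3 of 41 members, and 4.32% of all probe sets did.

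**Figure D1:**
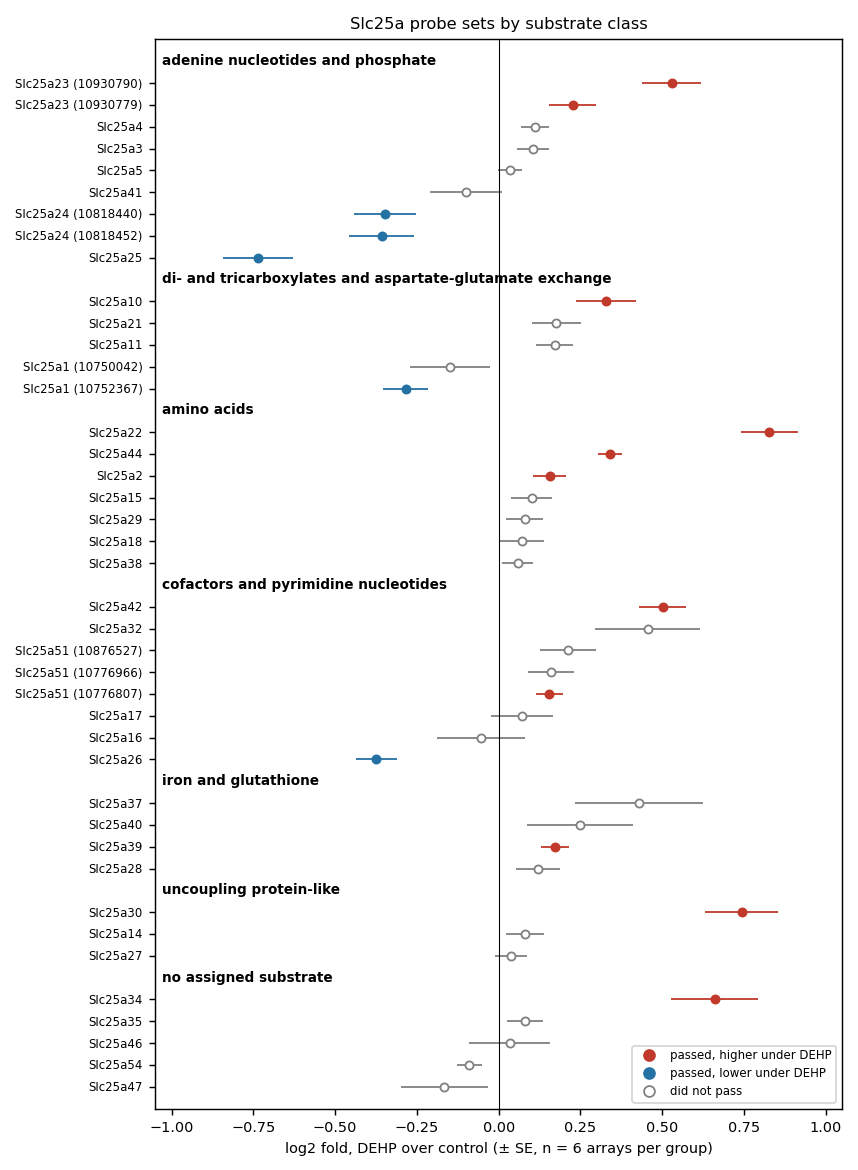
The log2 fold (DEHP over control, horizontal axis, ± SE, n = 6 arrays per group) of each of the 41 probe sets, grouped by substrate, with filled points for those that passed (red higher, blue lower) and open points for those that did not. The folds run from −0.74 for Slc25a25 to 0.83 for Slc25a22, and all 7 amino acid carriers lie right of 0 although only 3 of them passed. Of all 41 members 31 lie right of 0, and 11181 of all 27342 probe sets on the array had a log2 fold above 0.

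Among the 12 arrays, DEHP replicate 6 and control replicate 5 had a wider spread than the rest. Over all probe sets the SD of the log2 ratios was 0.27 for DEHP replicate 6 and 0.37 for control replicate 5, while the other 10 arrays had 0.15 to 0.19. Among the 41 member probe sets, DEHP replicate 6 was the highest or lowest DEHP array in 24 and control replicate 5 the highest or lowest control array in 33. Over all probe sets, the deviations of control replicate 5 and DEHP replicate 5 from their group means correlated at 0.77. A fold without control replicate 5 alone drops 1 of these arrays and keeps the other. Without both arrays 19 member probe sets passed, and these held all 16 that passed over the 12 arrays. Of all probe sets 5780 passed in that setting, or 21.1%. The 3 gained were Slc25a11 (log2 fold 0.18, adjusted p = 0.0416 by limma), Slc25a32 (0.27, adjusted p = 0.0179) and Slc25a3 (0.14, adjusted p = 0.0394).

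Because the values are ratios, the labelled cell type could not be checked by the abundance of its markers, and a change in the number of cells of a type cannot be told apart from a change of RNA per cell. For comparison with the marker lists that follow, 10.5% of all probe sets rose and 7.82% fell. Among 10 cardiomyocyte markers there were 3 rises, 3 falls and 4 that did not pass. The mean log2 ratio of these 10 markers ran from −0.27 to 0.21 in DEHP arrays and from −0.18 to 0.06 in controls. All 5 measured smooth muscle markers fell (mean log2 ratio −1.19 to −0.68 in DEHP arrays, 0.61 to 0.74 in controls), as did all 6 markers of dividing cells (−0.73 to −0.21 in DEHP arrays, 0.21 to 0.58 in controls). The heart muscle genes of smallest p were Myh6, the fast alpha myosin heavy chain (log2 fold 1.67), Ryr2, the calcium release channel (1.13), and Nppa, the atrial natriuretic peptide (−0.80). Of 8 fibroblast markers 3 rose and 5 fell (−0.40 to −0.03 in DEHP arrays, −0.01 to 0.14 in controls), and of 4 endothelial markers 3 rose (−0.18 to 0.58 in DEHP arrays, −0.42 to 0.02 in controls). Of 6 leukocyte markers 2 rose and 2 fell (−0.05 to 0.14 in DEHP arrays, −0.36 to 0.12 in controls). The part of these shifts in the carrier results was not tested.

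The carriers of adenine nucleotides and phosphate supply the ATP synthase with its substrates and export its product. Slc25a4 encodes ANT1, the ADP/ATP carrier typical of heart and muscle, and its log2 ratio was lowest at −0.0052, had a median of 0.07 and was highest at 0.16 in DEHP arrays, against −0.19, −0.02 and 0.0077 in control arrays. The groups overlapped, and the log2 fold of 0.11 ± 0.04 did not pass (95% interval 0.02 to 0.20, adjusted p = 0.103 by limma). Slc25a5 encodes ANT2, the form associated with dividing cells, and had a log2 fold of 0.03 ± 0.04 (95% interval −0.05 to 0.11). This stood beside the fall of all 6 markers of dividing cells. The phosphate carrier gene Slc25a3 had a log2 fold of 0.10 ± 0.05 (adjusted p = 0.179 by limma). With array weights, where 7614 of all probe sets passed, Slc25a4 (0.11, adjusted p = 0.0163 by limma) and Slc25a3 (0.17, adjusted p = 0.00511) passed. Slc25a4 passed in that 1 of the 21 alternatives, and Slc25a3 in 2. RefSeq lists 9 pseudogenes of Slc25a5, 2 of Slc25a3 and 1 of Slc25a4, so a probe set may also read their copies.

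The ATP-Mg/phosphate carriers exchange ATP-Mg for phosphate and so set the size of the adenine nucleotide pool in the matrix, and 3 of them are switched by calcium. These calcium-regulated members went opposite ways. Their promoters are shown because the genes, close in function, moved in opposite directions. Each run is from RefSeq, build GRCr8, and spans 250 bases before to 50 bases after the gene's start, 5′ to 3′ on the gene's strand. Capitals mark TGACGTCA (the full cyclic AMP response element), CCAAT and GGGCGG (the GC box) on either strand. The spans are chr9:1985316-1985615, minus strand, for Slc25a23, chr2:199449175-199449474, plus strand, for Slc25a24, and chr3:36116532-36116831, minus strand, for Slc25a25, whose listed start lies inside the gene's annotated span.
Slc25a23: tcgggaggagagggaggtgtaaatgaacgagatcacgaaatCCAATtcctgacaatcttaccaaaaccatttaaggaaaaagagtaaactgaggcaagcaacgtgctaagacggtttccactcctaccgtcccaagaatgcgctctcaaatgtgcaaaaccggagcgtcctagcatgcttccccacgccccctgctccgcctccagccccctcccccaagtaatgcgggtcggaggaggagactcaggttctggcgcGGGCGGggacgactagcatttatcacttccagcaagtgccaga
Slc25a24: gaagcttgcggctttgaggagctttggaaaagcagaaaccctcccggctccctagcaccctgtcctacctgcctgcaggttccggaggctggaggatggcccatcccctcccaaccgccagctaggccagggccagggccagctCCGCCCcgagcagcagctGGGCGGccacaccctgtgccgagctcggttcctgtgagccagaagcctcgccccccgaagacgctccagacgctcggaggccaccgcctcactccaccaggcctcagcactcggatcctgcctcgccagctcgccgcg
Slc25a25: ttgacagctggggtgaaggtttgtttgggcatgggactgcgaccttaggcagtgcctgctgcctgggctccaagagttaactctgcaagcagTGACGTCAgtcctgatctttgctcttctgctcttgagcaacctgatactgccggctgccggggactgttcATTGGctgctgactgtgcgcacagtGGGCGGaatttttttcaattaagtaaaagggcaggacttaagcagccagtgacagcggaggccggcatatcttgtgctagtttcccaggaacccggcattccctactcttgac

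Slc25a25, which fell, had TGACGTCA once, its first base 158 bases before the start, the single match among the 31 member genes with a promoter in the table. Of all 33469 promoters 1.83% held this motif. CCAAT was found once in Slc25a23 and once in Slc25a25, and in 18 of the 31 member promoters against 37.5% of all promoters. GGGCGG was found once in Slc25a23, once in Slc25a25 and 2 times in Slc25a24, and in 22 of the 31 member promoters against 33.1% of all. Neither a direct repeat of AGGTCA with any 1 base between the copies, which PPAR binds with RXR, nor TCAAGGTCA, an element bound by estrogen-related receptors, was in any of the 31 windows. These motifs stood in 0.0538% and 0.433% of all promoters. The set of all promoters was not matched to the members by kind of gene or base content. A match describes letters in the window and is not evidence of binding.

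Slc25a25 had the largest fall in the family. In DEHP arrays the log2 ratio was −0.61 at the lowest, −0.28 at the median and −0.11 at the highest, against 0.11, 0.43 and 0.68 in control arrays. Every DEHP array lay below every control array, with control replicate 5 the nearest control. The log2 fold was −0.74 ± 0.11, or 1.67-fold lower (adjusted p = 0.000313 by limma), and it passed in each of the 21 alternatives tried.

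Slc25a24 was read by 2 probe sets that gave nearly the same result. In the first its log2 ratio was −0.37, −0.17 and 0.03 (lowest, median and highest) in DEHP arrays, against −0.14, 0.16 and 0.42 in control arrays. Control replicate 5 lay below 3 DEHP arrays, and the other 5 controls lay above every DEHP array. In the second probe set DEHP replicate 6 was the highest DEHP array, at 0.12. The log2 folds were −0.35 ± 0.10 and −0.36 ± 0.10 (adjusted p = 0.0217 and 0.0231 by limma). Both calls were lost without control replicate 3 (adjusted p = 0.0503 and 0.0524) and without DEHP replicate 2 (0.051 and 0.0512), and the second also without DEHP replicate 3 (0.0531). Without DEHP replicate 6 and control replicate 5 the folds were −0.45 and −0.46. Slc25a54 lies beside Slc25a24 and overlaps its span in the RefSeq annotation. Its own log2 fold was −0.09 ± 0.04 (adjusted p = 0.137).

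Slc25a23 rose in both of its probe sets, by unequal amounts. In the probe set with the larger change the log2 ratio was 0.06, 0.21 and 0.35 (lowest, median and highest) in DEHP arrays, against −0.61, −0.34 and −0.06 in control arrays. No DEHP array overlapped the controls, and the lowest DEHP value was in replicate 6. That log2 fold was 0.53 ± 0.09, or 1.44-fold (adjusted p = 0.001 by limma). The other probe set gave 0.23 ± 0.07 (adjusted p = 0.0458), with −0.07, 0.11 and 0.44 in DEHP arrays, against −0.17, −0.10 and 0.06 in control arrays. Those groups overlapped, and the call was lost when any of 10 arrays was left out (adjusted p = 0.0518 to 0.0965), that is every array other than control replicate 6 and DEHP replicate 6. Slc25a41, the neighbour of Slc25a23 and a carrier without the calcium-binding part, had a log2 fold of −0.10 ± 0.11 (adjusted p = 0.592), and of −0.03 without control replicate 5.

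Whether related carriers changed unequally was tested on the difference of their log2 ratios within each array, with an exact two-sided permutation test over all splits of the 12 arrays. There were 11 pairs with both members measured, and p-values were adjusted over these pairs. A gene with several probe sets entered through its lowest-numbered one, which for Slc25a23 is the one with the smaller change. Of the 11 pairs, 5 passed, and 6 had an unadjusted p under 0.05. The smallest p that these splits can give is 0.00216.

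Within the calcium-regulated ATP-Mg/phosphate carriers the log2 ratio of Slc25a23 minus that of Slc25a25 averaged 0.45 ± 0.16 in DEHP arrays and −0.52 ± 0.26 in control arrays (SD, n = 6 each). The groups did not overlap, and the folds differed by 0.96 ± 0.13 on the log2 scale (exact permutation p = 0.00216, adjusted p = 0.0119). Slc25a23 minus Slc25a24 differed by 0.57 ± 0.15 (exact p = 0.00866, adjusted p = 0.0238), and the groups overlapped (lowest DEHP array −0.09, highest control 0.08). Slc25a24 fell less than Slc25a25, by a difference of 0.39 ± 0.13 (exact p = 0.0173, adjusted p = 0.0381), again with overlapping groups. That last call was lost when any of 8 arrays was left out, namely DEHP replicates 1, 4, 5 and 6 and control replicates 2, 4, 5 and 6 (adjusted exact p = 0.0556 to 0.081). It was also lost with the mean over a gene's probe sets (difference 0.38, adjusted exact p = 0.0524) and without DEHP replicate 6 and control replicate 5 together (0.34, adjusted exact p = 0.0873).

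The ADP/ATP carriers ANT1 and ANT2 were not separated, with a difference of 0.08 ± 0.04 in log2 fold (95% interval −0.02 to 0.18, exact p = 0.119, adjusted p = 0.164). It was 0.10 without DEHP replicate 6 (adjusted exact p = 0.0476) and 0.05 without control replicate 5 (0.327), and it passed in 1 of the 16 alternatives tried for pairs.

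**Figure D2:**
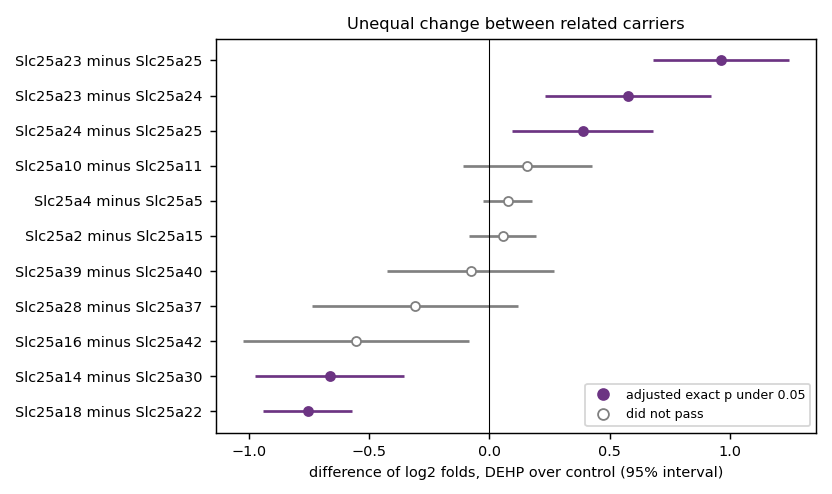
The difference between 2 related carriers in log2 fold, DEHP over control (horizontal axis, with 95% interval from the pooled SD, n = 6 arrays per group), for 11 pairs, with filled points for an adjusted exact p under 0.05. Slc25a23 minus Slc25a25 lies farthest right at 0.96 and Slc25a18 minus Slc25a22 farthest left at −0.75.

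Carriers of di- and tricarboxylates connect the tricarboxylic acid cycle with cytosolic pathways. Slc25a1, the citrate carrier that exports citrate for fatty acid and sterol synthesis, was read by 2 probe sets. In the one that passed, the log2 ratio was −0.20, −0.11 and 0.03 (lowest, median and highest) in DEHP arrays, against −0.04, 0.25 and 0.32 in control arrays. The groups overlapped through DEHP replicates 2 and 5 and control replicates 1 and 3, and the log2 fold was −0.28 ± 0.07, or 1.22-fold lower (adjusted p = 0.0112 by limma). The second probe set gave −0.15 ± 0.12 and did not pass (adjusted p = 0.47). Without control replicate 5 it was −0.06 and without both wide arrays −0.03. The platform annotation ties it to another accession than the first.

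Slc25a10, the dicarboxylate carrier that exchanges malate and succinate for phosphate, rose. The log2 ratio of Slc25a10 was −0.0016, 0.09 and 0.56 in DEHP arrays, against −0.32, −0.19 and 0.0016 in control arrays. The highest value was DEHP replicate 6, and the groups overlapped narrowly through DEHP replicate 5 and control replicate 2. The log2 fold was 0.33 ± 0.09 (adjusted p = 0.026 by limma), and 0.25 without DEHP replicate 6. The call was lost without control replicate 1 (adjusted p = 0.0516), control replicate 3 (0.0588) or DEHP replicate 2 (0.0527).

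Slc25a11, the oxoglutarate/malate carrier of the malate-aspartate shuttle, had a log2 fold of 0.17 ± 0.06 and did not pass (95% interval 0.04 to 0.30, adjusted p = 0.0616 by limma). It passed without DEHP replicate 6 (adjusted p = 0.0316) or control replicate 6 (0.049). Slc25a10 and Slc25a11 were not separated, with a difference of 0.16 in log2 fold (95% interval −0.11 to 0.43, adjusted exact p = 0.307), and of 0.05 without DEHP replicate 6. The oxodicarboxylate carrier Slc25a21, with 1 pseudogene in RefSeq, had a log2 fold of 0.18 ± 0.07 (adjusted p = 0.14).

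Of 13 measured enzymes that work with these carriers, 4 rose, 3 fell and 6 did not pass, where 18.3% of all probe sets passed. Acly, which splits exported citrate into acetyl-CoA and oxaloacetate, fell (log2 fold −0.51 ± 0.04, adjusted p = 4.45e-06 by limma). Me1, the cytosolic malic enzyme that makes NADPH, also fell (−0.36 ± 0.07, adjusted p = 0.00252). Got2, the mitochondrial aspartate aminotransferase of the malate-aspartate shuttle, rose (0.40 ± 0.05, adjusted p = 7.69e-05). The median log2 fold of the 13 was 0.05.

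Carriers of amino acids held the largest rise in the family. Slc25a22 encodes glutamate carrier 1, which brings glutamate with a proton into the matrix. Its log2 ratio was 0.20, 0.26 and 0.39 (lowest, median and highest) in DEHP arrays, against −0.80, −0.55 and −0.20 in control arrays. The DEHP arrays lay close together above all controls, and control replicate 5 was the highest control. The log2 fold was 0.83 ± 0.09, or 1.77-fold (adjusted p = 2.12e-05 by limma), and it passed in each of the 21 alternatives.

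Slc25a18, glutamate carrier 2, had a log2 fold of 0.07 ± 0.07 (adjusted p = 0.528). The log2 ratio of Slc25a18 minus Slc25a22 averaged −0.21 ± 0.09 in DEHP arrays and 0.55 ± 0.18 in control arrays (SD, n = 6 each). The groups did not overlap, and the folds of the glutamate carriers differed by −0.75 ± 0.08 (exact permutation p = 0.00216, adjusted p = 0.0119).

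Slc25a44, which carries branched-chain amino acids into mitochondria, rose by less but with little spread. The log2 ratio of Slc25a44 was 0.10, 0.21 and 0.26 in DEHP arrays, against −0.22, −0.13 and −0.10 in control arrays. The groups did not overlap, and the log2 fold was 0.34 ± 0.04, or 1.27-fold (adjusted p = 2.38e-05 by limma). Slc25a2, an ornithine carrier, had a log2 ratio of −0.01, 0.03 and 0.20 in DEHP arrays, against −0.23, −0.08 and 0.02 in control arrays, and the groups overlapped. It had a log2 fold of 0.16 ± 0.05 at the edge of the threshold (adjusted p = 0.0484), and its call was lost when any of 10 arrays was left out (adjusted p = 0.054 to 0.109), that is every array other than control replicate 5 and DEHP replicate 3. The ornithine carrier Slc25a15 (0.10 ± 0.06), the basic amino acid carrier Slc25a29 (0.08 ± 0.06) and the glycine carrier Slc25a38 (0.06 ± 0.05) did not pass. RefSeq lists 1 pseudogene each of Slc25a15 and Slc25a38, whose copies may be read too. Slc25a2 and Slc25a15 were not separated (difference 0.06, 95% interval −0.08 to 0.20, adjusted exact p = 0.419).

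**Figure D3:**
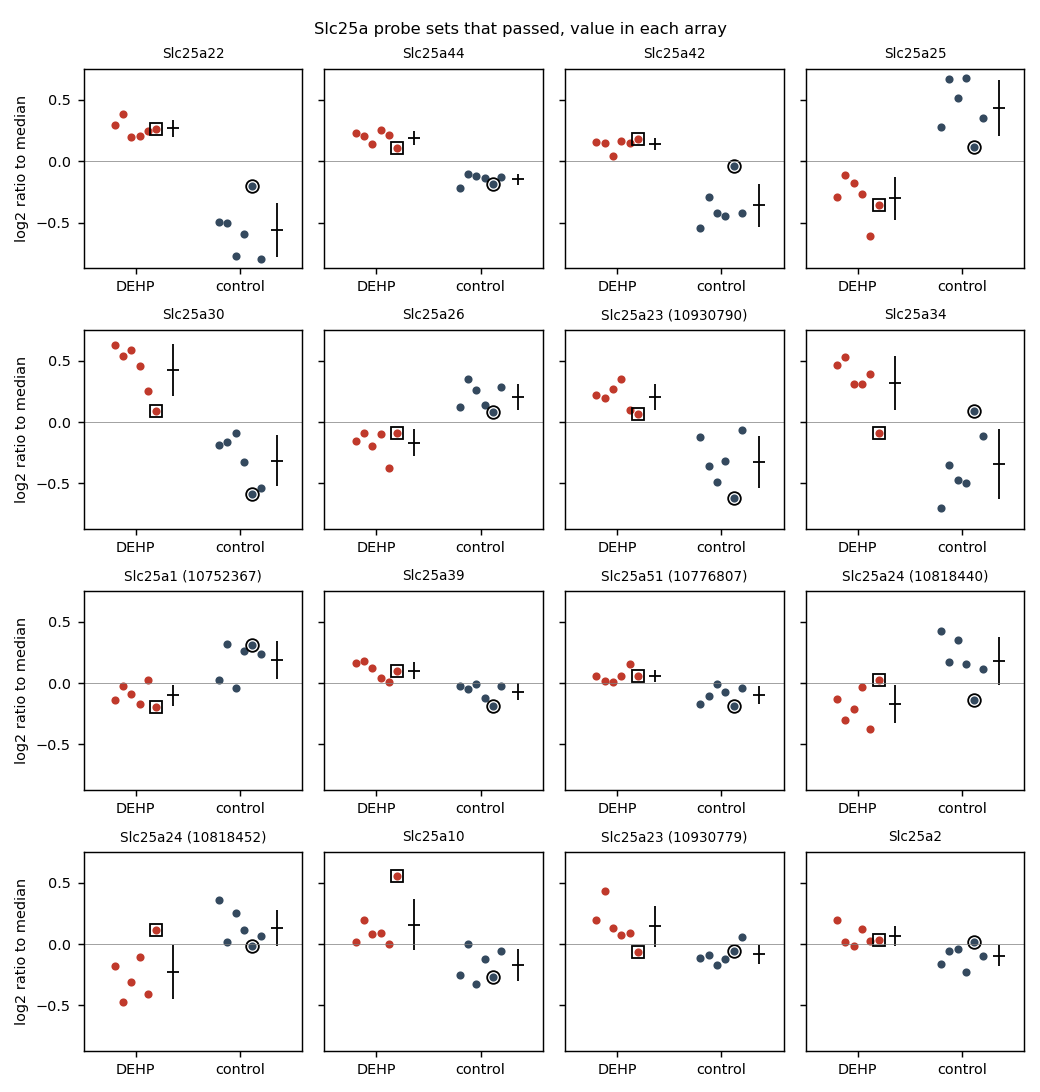
The log2 ratio to the probe set's median (vertical axis) in each of 6 DEHP and 6 control arrays for the 16 probe sets that passed, with a cross beside each group for its mean and SD, an open square around DEHP replicate 6 and an open circle around control replicate 5. The groups are apart in 9 panels, and the DEHP points of Slc25a22, Slc25a42 and Slc25a44 cluster more tightly than those of Slc25a30 or Slc25a34.

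Carriers of cofactors and nucleotides numbered 8 probe sets of 6 genes, with 2 rises and 1 fall, where 10.5% of all probe sets rose and 7.82% fell. Slc25a42 imports coenzyme A, which fatty acid oxidation and the tricarboxylic acid cycle use in the matrix. Its log2 ratio was 0.04, 0.15 and 0.18 (lowest, median and highest) in DEHP arrays, against −0.54, −0.42 and −0.04 in control arrays. The groups did not overlap, and control replicate 5 lay well above the other controls. The log2 fold was 0.50 ± 0.07, or 1.42-fold (adjusted p = 0.000273 by limma), and 0.56 without DEHP replicate 6 and control replicate 5.

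Slc25a16, a second member linked to coenzyme A, had a log2 fold of −0.05 ± 0.13 (adjusted p = 0.827), of 0.01 without DEHP replicate 5 and of −0.18 without control replicate 5. The difference between Slc25a16 and Slc25a42 was −0.56 ± 0.21 (95% interval −1.02 to −0.09, exact permutation p = 0.0303) and missed the threshold after adjustment (0.0556). Without control replicate 5 it was −0.75 (adjusted exact p = 0.00794), and after quantile normalization −0.72 (adjusted exact p = 0.019).

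Slc25a26 imports S-adenosylmethionine, the methyl donor for mitochondrial RNA and proteins, which lipoic acid synthesis also uses. Values of log2 ratio were −0.38, −0.12 and −0.08 in DEHP arrays, against 0.08, 0.20 and 0.35 in control arrays. The groups did not overlap, and the log2 fold was −0.37 ± 0.06, or 1.30-fold lower (adjusted p = 0.0008 by limma). Slc25a32, which carries folate and FAD, had a log2 fold of 0.46 ± 0.16 (adjusted p = 0.0722), and control replicate 5 was at −1.13 while the remaining controls ran from −0.31 to 0.05. It passed without control replicate 5 (log2 fold 0.29, adjusted p = 0.01) or control replicate 1 (0.53, adjusted p = 0.0424).

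Slc25a51, the NAD carrier, was read by 3 probe sets annotated with the same accessions. They gave log2 folds of 0.15 ± 0.04, 0.16 ± 0.07 and 0.21 ± 0.09, and the first alone passed (adjusted p = 0.0169, 0.162 and 0.122 by limma). In the probe set that passed, the log2 ratio was 0.0094, 0.06 and 0.15 (lowest, median and highest) in DEHP arrays, against −0.18, −0.09 and −0.0094 in control arrays, with no overlap. In the others, control replicate 5 was at −0.45 and −0.55, below all other arrays, and without it their log2 folds were 0.09 and 0.13. RefSeq also holds like-named genes, Slc25a51l1 and Slc25a52, so the source of the signal is uncertain. The peroxisomal carrier Slc25a17 had a log2 fold of 0.07 ± 0.10 (adjusted p = 0.667), and −0.02 without control replicate 5.

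Carriers of iron and glutathione all had log2 folds above 0, but 1 of the 4 passed. Log2 folds were above 0 in 31 of all 41 members and in 11181 of all 27342 probe sets. Slc25a39, which imports glutathione, had a log2 ratio of 0.01, 0.11 and 0.18 (lowest, median and highest) in DEHP arrays, against −0.19, −0.04 and −0.01 in control arrays. The groups were apart by a narrow gap, and the log2 fold was 0.17 ± 0.04, or 1.13-fold (adjusted p = 0.014 by limma). RefSeq lists 8 pseudogenes of Slc25a39, whose copies the probe set may also read. Slc25a40, its close relative, had a log2 fold of 0.25 ± 0.16 (adjusted p = 0.36), with control replicate 5 at −0.96, and a fold of 0.09 without that array. The difference between them was −0.08 (95% interval −0.42 to 0.27, adjusted exact p = 0.719), and 0.05 without control replicate 5.

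Slc25a37 encodes mitoferrin 1, the iron importer of red cell precursors. DEHP replicate 6 had a log2 ratio of 1.32, while the remaining DEHP arrays ran from −0.01 to 0.22 and the controls from −0.32 to 0.10. The log2 fold of 0.43 ± 0.20 did not pass (adjusted p = 0.172 by limma), and without DEHP replicate 6 it was 0.22. The 6 measured erythroid markers, of which none passed, averaged −0.11 there, while the remaining DEHP arrays ran from −0.10 to 0.13 and the controls from −0.01 to 0.32. Slc25a28, mitoferrin 2, had a log2 fold of 0.12 ± 0.07 (adjusted p = 0.27). The difference between Slc25a28 and Slc25a37 was −0.31 (95% interval −0.73 to 0.12, adjusted exact p = 0.112), and it was −0.13 without DEHP replicate 6 (adjusted exact p = 0.199) and −0.37 without DEHP replicate 4 (0.0429).

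Among carriers related to the uncoupling proteins, Slc25a30 rose. Its log2 ratio was 0.09, 0.50 and 0.63 (lowest, median and highest) in DEHP arrays, against −0.59, −0.25 and −0.09 in control arrays. The groups did not overlap, and DEHP replicate 6 was the lowest DEHP array and control replicate 5 the lowest control. The log2 fold was 0.74 ± 0.11, or 1.67-fold (adjusted p = 0.000376 by limma), and it passed in each of the 21 alternatives. Slc25a14, also called UCP5, had a log2 fold of 0.08 ± 0.06 and Slc25a27, UCP4, of 0.04 ± 0.05, and Slc25a14 was 0.04 without DEHP replicate 6. The difference between Slc25a14 and Slc25a30 was −0.66 ± 0.14 (exact permutation p = 0.00649, adjusted p = 0.0238). For this pair the groups overlapped, with the highest DEHP array at 0.15 and the lowest control at 0.03.

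Of 5 members with no assigned substrate here, Slc25a34 rose. The log2 ratio of Slc25a34 was −0.09, 0.35 and 0.53 in DEHP arrays, against −0.70, −0.41 and 0.09 in control arrays. Only DEHP replicate 6 and control replicate 5 crossed to the other side, and the log2 fold of 0.66 ± 0.13, or 1.58-fold (adjusted p = 0.00342 by limma), was 0.83 without them. Slc25a35 (0.08 ± 0.05), Slc25a47 (−0.17 ± 0.13) and Slc25a46 (0.03 ± 0.12), an outer membrane protein of mitochondrial shape and fusion, did not pass. Without control replicate 5, Slc25a47 was −0.05 and Slc25a46 −0.08.

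Transport across the mitochondrial membranes by proteins whose symbols do not begin with Slc25a was listed for comparison. The list is not free of relatives of the carriers, since it holds the uncoupling proteins Ucp1, Ucp2 and Ucp3. Of 22 measured transporters 6 rose, 2 fell and 14 did not pass, with a median log2 fold of 0.07, where 10.5% of all probe sets rose and 7.82% fell. Sfxn3, a sideroflexin, fell (−0.41 ± 0.04, adjusted p = 3.19e-06 by limma). Vdac1, the main pore of the outer membrane, rose (0.32 ± 0.04, adjusted p = 0.000109), as did Ucp2, an uncoupling protein of the same superfamily (0.25 ± 0.05, adjusted p = 0.00215). The machinery that inserts carriers into the inner membrane gave 0 rises and 2 falls among 14 measured genes, with a median log2 fold of 0.0026, and 2 passing of 14 is no more than the 18.3% over all probe sets. Timm8b, a small chaperone of the intermembrane space (−0.36 ± 0.04, adjusted p = 6.08e-05), and Tomm20, an import receptor (−0.32 ± 0.07, adjusted p = 0.00373), fell. Agk, a subunit of the carrier translocase in human cells, had a log2 fold of 0.25 ± 0.09 (adjusted p = 0.0914).

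**Figure D4:**
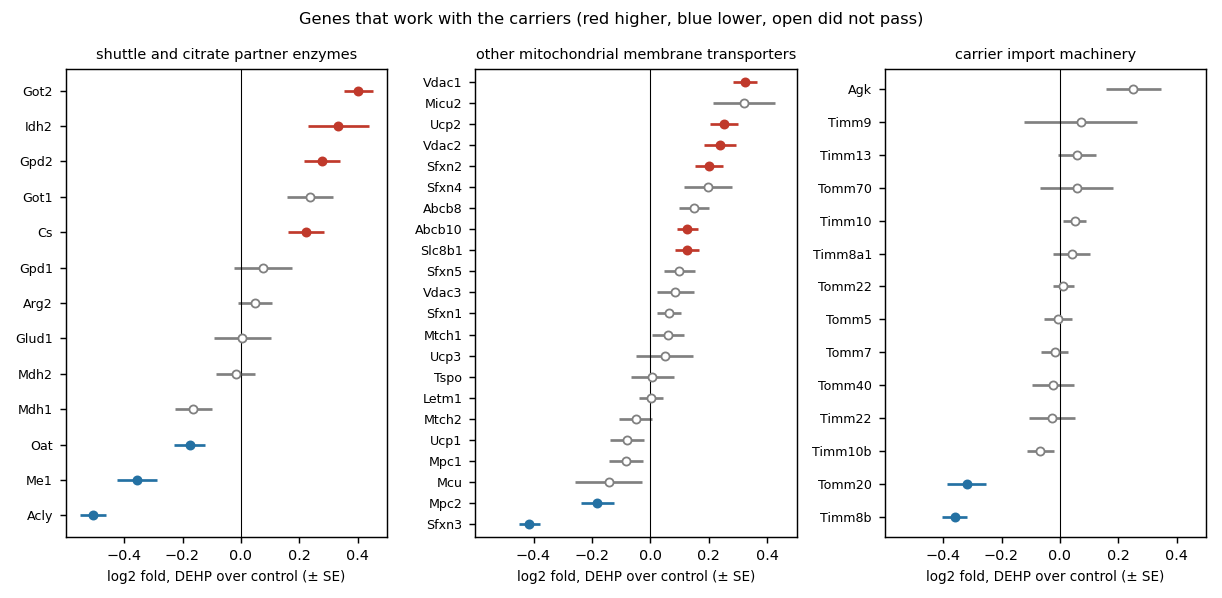
The log2 fold (DEHP over control, horizontal axis, ± SE, n = 6 arrays per group) of genes that work with the carriers, in 3 lists, red where higher, blue where lower and open where the test was not passed. Acly (−0.51) and Got2 (0.40) mark the ends of the first list, and 12 of the 14 import genes did not pass.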

How the data were processed

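Affymetrix arrays measured RNA of 6 DEHP and 6 control cultures of cardiomyocytes. Per the submitters' processing notes the authors processed the arrays with RMA, a method that by definition corrects background, normalizes and summarizes probes. No version is given. What the authors deposited is a linear ratio per probe set and array. In log2, the median of every probe set over the 12 arrays lay within 5e-07 of 0, which shows the divisor to be that median, and no level can be read from the values. The number of arrays limits the precision, and signal over background is not known. Groups come from the sample titles. The series text calls the samples of a group biological replicates and gives 1 litter for all cells, so p-values measure the spread between cultures of that litter.

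The log2 of each ratio was used with no further normalization and no filter on low values. DEHP was compared with control by limma 3.58.1 in R 4.3.3 (lmFit, eBayes, two-sided, Benjamini-Hochberg over all 27342 probe sets). Folds are ± SE of this fit, and a 95% interval is from the same fit. The fit was tested on simulated data before use. Pairs of carriers were compared by the exact permutation test, with SE from the SDs of the 2 groups and a 95% interval from their pooled SD. Gene names are those of the platform annotation. All 36 member genes were found in RefSeq's table for GRCr8, which changed 0 symbols, and 31 had a promoter there. No build of the array is given in the sources used here.

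The members, lists and pairs were chosen with earlier results of these data known. By the naming rule any member may be named, with its range by group where it passed, and the 3 genes of smallest p in each list of partner genes. Values of single arrays for members that did not pass were chosen after they were seen. Alternatives were quantile normalization, median centring, array weights, robust eBayes, an adjusted p under 0.01, a minimum fold of 1.2 (limma's treat), the replicate number as a block, probe sets with 1 gene symbol alone, the mean of a gene's probe sets for pairs, each array left out in turn, and DEHP replicate 6 and control replicate 5 left out together.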

Additional observations from a re-analysis of the deposited data

Results flagged for a closer look

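In 15 of the 82 groups of 6 arrays (41 probe sets in 2 groups), the highest or lowest array lay apart from the others, its gap to the nearest of them exceeding Dixon's critical share of the group's range, where chance gives about 1 group in 20. Of these, 9 were control replicate 5. Its log2 ratio was −0.69 for Slc25a16, −0.54 for Slc25a17, −1.13 for Slc25a32, −0.19 for Slc25a4, −0.96 for Slc25a40, −0.63 for Slc25a46, and −0.45 and −0.55 for 2 probe sets of Slc25a51, each below the other controls. For Slc25a47 it was 0.69, above them. DEHP replicate 6 stood apart 3 times, at 0.56 for Slc25a10 and 1.32 for Slc25a37, above the other DEHP arrays, and at −0.09 for Slc25a34, below them. DEHP replicate 5 was high at 0.15 for the Slc25a51 probe set that passed and at 0.07 for Slc25a54. DEHP replicate 3 was low at 0.04 for Slc25a42, where the other DEHP arrays ran from 0.15 to 0.18.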

How the results depend on the processing

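Over the 41 probe sets and 11 pairs, 934 single values under an alternative kept direction and call, 67 lost the call, 28 gained one and 8 turned direction. An adjusted p under 0.01 left 8 member probe sets, 6 higher and 2 lower, and 3238 of all probe sets. A minimum fold of 1.2 left 3, 2 higher and 1 lower, and 1182 of all. Array weights gave 24 member calls, 18 higher and 6 lower, and 7614 calls in all, 4191 of them higher. Leaving out each array in turn gave 11 to 16 member calls, 8 to 11 higher and 3 to 5 lower, 4211 to 5556 calls in all, and 4 to 5 pairs. The 3 lower calls came without control replicate 3 or DEHP replicate 2. Same-numbered arrays had correlations of 0.07 (replicate 6) to 0.77 (replicate 5) in their deviations from the group means. Of the 6 DEHP arrays 2, replicates 1 and 5, correlated best with their own number, so the number was not taken to pair them. With the replicate number as a block 18 member probe sets passed, 13 higher and 5 lower, and 6541 in all. Slc25a2 (adjusted p = 0.0937 by limma) and the second Slc25a23 probe set (0.0622) lost the call, while Slc25a11 (0.0478), Slc25a21 (0.0228), Slc25a32 (0.0231) and a Slc25a51 probe set (0.0497) gained it. For pairs, a sign-flip test over the replicate numbers called 0, since its smallest p is 0.0312 and its smallest adjusted p here was 0.0859. By unadjusted exact permutation p, 6 pairs were under 0.05. Values that turned direction had not passed. On the log2 scale Slc25a46 was −0.0151 after quantile normalization and −0.0913 without DEHP replicate 6 and control replicate 5, where Slc25a17 was −0.0405 and Slc25a39 minus Slc25a40 was 0.0721. With 1 array left out these ran from −0.0752 to 0.098, from −0.018 to 0.1131 and from −0.1406 to 0.0538, and Slc25a16 from −0.1793 to 0.0103. The cause was not tested. The ratios hold no signal over background, so a dim probe set cannot be told from a bright one.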
